A study of Rattus norvegicus with 6 samples.

Results

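The RNA of 6 protein-coding genes of the mitochondrial genome was examined in rat kidney. These genes encode subunits of the respiratory chain complexes III and IV and of complex V, the ATP synthase. The members were fixed by name and identifier: Mt-co1 (ENSRNOG00000034234), Mt-co2 (ENSRNOG00000030371), Mt-co3 (ENSRNOG00000030700), Mt-cyb (ENSRNOG00000031766), Mt-atp6 (ENSRNOG00000031979) and Mt-atp8 (ENSRNOG00000033299). All 6 were found among the 23487 genes of the deposited count table, and all 6 were among the 13644 genes kept by the filter on low counts. The deposited tables list genes by identifier only, so the symbols come from the list that defined the members.

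Bulk RNA sequencing was performed on whole kidney tissue of 3 rats after sub-total nephrectomy (SNx), an operation that leaves only a remnant of kidney tissue and serves as an animal model of chronic kidney disease, and of 3 non-operated rats (NoOp). The study's methods describe male Wistar Han rats in which part of the right kidney was resected and the left kidney was removed later. Ages and the time between surgery and tissue collection are not given per library, and the study collected each SNx animal when its kidney function crossed a preset limit, so that time differed between animals. The controls had no surgery, so loss of kidney tissue cannot be told apart from the effects of an operation. No transgene, drug or other treatment is named for either group. In whole tissue, a lower value can stand for fewer cells that contain much of an RNA or for less RNA per cell, and these cannot be told apart here. Kidney cell type markers were not checked, because the tables do not pair identifiers with symbols.

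The mitochondrial genome is a small circular DNA present in many copies in each cell, and it encodes a minority of the respiratory chain subunits, while nuclear genes encode the others. Its heavy strand is transcribed as long precursors from which the individual messenger RNAs are cut, so neighbouring genes share a promoter but can differ in processing and stability. Kidney tubules, above all those of the proximal tubule and the thick ascending limb, are rich in mitochondria because salt and solute reabsorption uses much ATP. The question addressed by the comparison is whether the RNA of these subunits differed in abundance between the remnant kidney and the kidney of animals without an operation.

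The SNx libraries held between 9572955 and 10707643 estimated counts, and the NoOp libraries between 11183768 and 13140864. Where 3 values of a group are listed, they are those of replicates 1, 2 and 3 in this order. The library titles carry numbers from a low range, for NoOp replicate 1 and SNx replicates 1 and 2, and from a high range, for NoOp replicates 2 and 3 and SNx replicate 3. What these numbers stand for is not given. The study's methods report RNA integrity estimates that range widely over all its samples, with no value per library. Whether RNA integrity contributed to the differences between libraries in level, spread or ratio was not tested. For the genes described here SNx replicates 2 and 3 lay at opposite ends, and fold changes are therefore also given without each of them.

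The 6 genes together took a large part of every library. The SNx libraries differed from each other far more than the NoOp libraries did. The summed share of the library total was 13.8%, 12.1% and 13.3% in the NoOp libraries and 12.6%, 9.52% and 18.1% in the SNx libraries. The lowest and the highest share of all libraries were thus both found in SNx, and the groups overlapped. The group means were close, 13.1% ± 0.885 for NoOp and 13.4% ± 4.35 for SNx (SD, n = 3 in each group). The exact two-sided permutation p for the difference of 0.327 percentage points was 0.9, and no split of 3 libraries against 3 can give a p below 0.1. The 95% Wilson intervals of the shares of single libraries reached at most 0.0244 percentage points to either side, which covers counting error only.

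**Figure D1:**
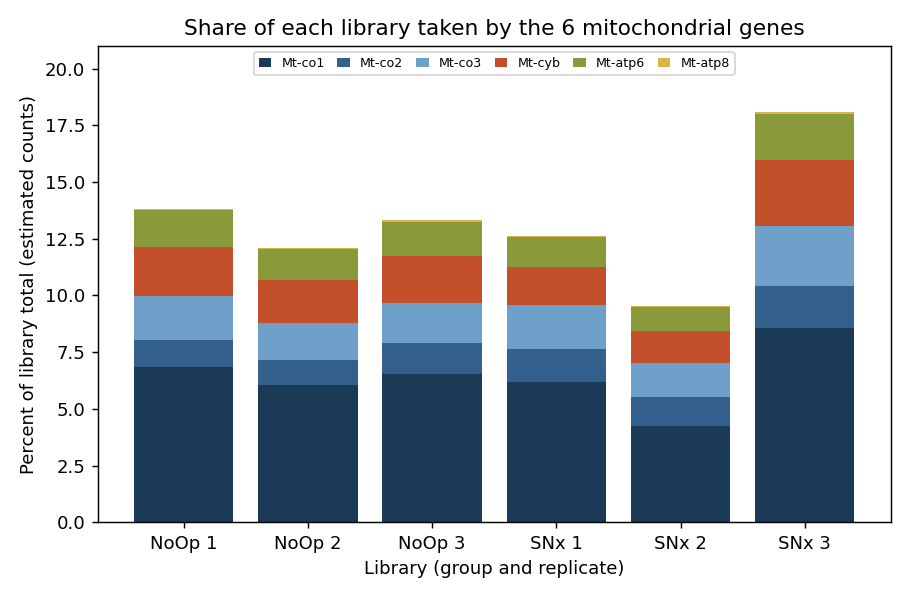
Bars show the percent of the library total (estimated counts) taken by each of the 6 genes, stacked, in the 3 NoOp and 3 SNx libraries. The sum lies between 12.1% and 13.8% in the NoOp libraries and between 9.52% (SNx replicate 2) and 18.1% (SNx replicate 3) in the SNx libraries.

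The direction of the difference in summed share was opposite in the ranges of library numbers. In the low range the share was 13.8% in the single NoOp library and 11.1% on average in the pair of SNx libraries. In the high range it was 12.7% on average in the pair of NoOp libraries and 18.1% in the single SNx library. Because one group has a single library in each range, range and animal cannot be told apart.

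Mt-co1 encodes the catalytic core of cytochrome c oxidase, complex IV, the enzyme that passes electrons to oxygen. It had the highest estimated count of all genes in each of the 6 libraries, a rank by counts and not per length. Its counts were 798077, 795136 and 732411 in the NoOp animals and 613152, 454892 and 818740 in the SNx animals. Counts were also expressed relative to a common library size (CPM) after TMM scaling, which multiplies each library size by a factor that aligns the bulk of the genes. On this scale Mt-co1 was at 77601, 62910 and 70336 CPM in the NoOp libraries and at 59035, 35151 and 86500 CPM in the SNx libraries. SNx replicates 1 and 2 lay below and SNx replicate 3 above all NoOp libraries. As percent of the library, Mt-co1 took 6.49% ± 0.407 of NoOp and 6.33% ± 2.16 of SNx libraries (SD, n = 3 in each group), and the exact two-sided permutation p was 0.9.

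Mt-co2 encodes the subunit that receives electrons from cytochrome c at its copper centre. It had 13216, 11289 and 14572 TMM-scaled CPM in the NoOp animals, and 13814, 10375 and 18629 CPM in the SNx animals. SNx replicate 1 lay within the NoOp values, SNx replicate 2 below and SNx replicate 3 above them. Its percent of the library was 1.17%, 1.09% and 1.36% in NoOp and 1.45%, 1.25% and 1.84% in SNx. On this scale, which uses no scaling factors, the SNx mean of 1.52% ± 0.299 was above the NoOp mean of 1.20% ± 0.139 (SD, n = 3; exact permutation p = 0.2), and SNx replicate 2 lay inside the NoOp values.

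Mt-co3 encodes the third mitochondrially made core subunit of complex IV. It had 22317, 17027 and 19129 TMM-scaled CPM in the NoOp animals, and 18202, 12475 and 27068 CPM in the SNx animals. Again SNx replicate 2 was lowest, SNx replicate 3 highest and SNx replicate 1 inside the NoOp values. As percent of the library it was at 1.80% ± 0.168 in NoOp and at 2.03% ± 0.593 in SNx (SD, n = 3), with p = 0.7 by the exact permutation test.

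Mt-cyb encodes cytochrome b, the only subunit of complex III that the mitochondrial genome encodes and the site where ubiquinol is oxidised. It had 24409, 19991 and 22251 TMM-scaled CPM in the NoOp animals, and 15938, 11823 and 29196 CPM in the SNx animals. SNx replicates 1 and 2 lay below all NoOp libraries and SNx replicate 3 above all of them. As percent of the library it was at 2.05% ± 0.118 in NoOp and at 1.997% ± 0.781 in SNx (SD, n = 3), with p = 1 by the exact permutation test.

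Mt-atp6 and Mt-atp8 encode membrane subunits of the ATP synthase, of which the first forms part of the proton channel. Their reading frames overlap and are carried on a shared messenger RNA, so the division of reads between them rests on the authors' transcript estimation. Mt-atp6 had 18028, 13952 and 16070 TMM-scaled CPM in the NoOp animals, and 12514, 8556 and 20726 CPM in the SNx animals. Mt-atp8 had 864, 660 and 769 CPM in NoOp and 530, 360 and 988 CPM in SNx. For both genes SNx replicates 1 and 2 lay below and SNx replicate 3 above all NoOp libraries. The percent of the library was 1.48% ± 0.127 in NoOp and 1.47% ± 0.524 in SNx for Mt-atp6, and 0.0705% ± 0.00648 in NoOp and 0.0656% ± 0.0284 in SNx for Mt-atp8 (SD, n = 3; exact permutation p = 0.9 for both).

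**Figure D2:**
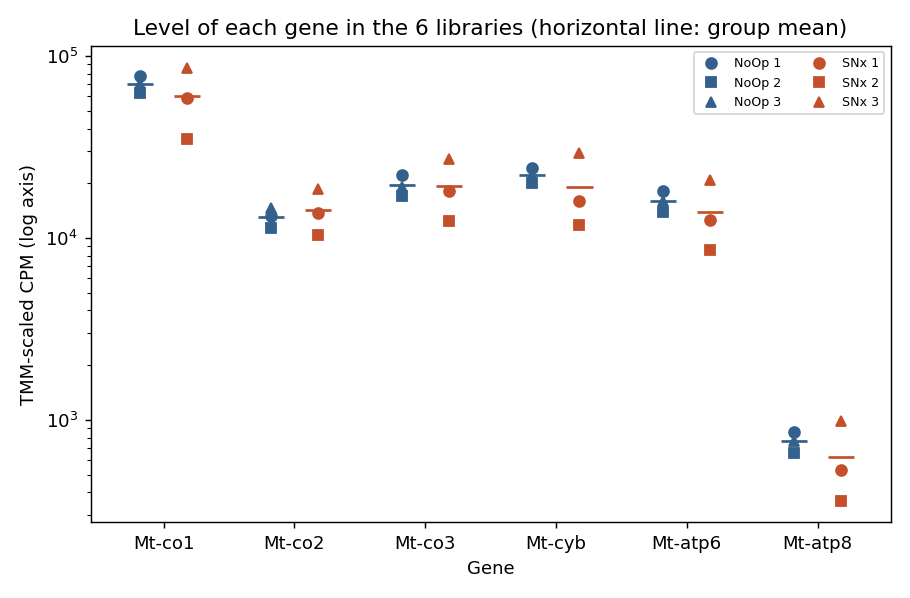
Points show the TMM-scaled CPM (log axis) of each gene in each library, with NoOp in blue and SNx in orange, a marker shape per replicate and a horizontal line at the group mean. SNx replicate 2 is the lowest and SNx replicate 3 the highest of the 6 libraries for all 6 genes.

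None of the 6 genes passed the test between groups. With limma on voom-transformed counts, 0 of 6 had a Benjamini-Hochberg adjusted p under 0.05, against 35.8% of the 13644 genes tested (19.2% higher and 16.6% lower in SNx), and 0 of 6 had an unadjusted p under 0.05, against 46.7% of all genes. The quasi-likelihood test of edgeR and the Wald test of DESeq2 also called 0 of 6. For 0 of 6 genes did the 3 SNx libraries lie on one side of the 3 NoOp libraries, whereas the groups did not overlap for 51.6% of all genes tested. Because the 6 genes moved together over the libraries, these counts are not of separate results.

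The estimates were small and their intervals wide. The log2 fold change of SNx against NoOp was -0.30 for Mt-co1 (standard error 0.36), and its 95% interval ran from -1.14 to 0.54 (limma adjusted p 0.554). For Mt-cyb it was -0.31 (standard error 0.35), and the interval ran from -1.13 to 0.50 (limma adjusted p 0.520). Mt-atp6 and Mt-atp8 had estimates of -0.27 and -0.39, with intervals from -1.06 to 0.52 and from -1.20 to 0.42. Mt-co2 had the only positive estimate, 0.11 with an interval from -0.51 to 0.73 (limma adjusted p 0.783). For Mt-co3 the estimate was -0.07 with an interval from -0.80 to 0.67 (limma adjusted p 0.883). As a fold, the interval of Mt-co1 spanned from 0.454 to 1.46, so the data do not show that the levels were alike. The median over the 6 genes was -0.29, beside a median of 0.01 over all genes tested.

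The estimates depended on the scaling. With library size alone the median log2 fold change of all genes was 0.24 in place of 0.01, and the estimate of Mt-co3 was 0.14 in place of -0.07. The other 5 genes kept their sign, with estimates from -0.18 for Mt-atp8 to 0.32 for Mt-co2.

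The estimates also rested on single SNx libraries. Without SNx replicate 2, which had the lowest CPM of every gene, the estimates ranged from -0.08 for Mt-atp8 to 0.30 for Mt-co2, and those of Mt-co1, Mt-co3 and Mt-atp6 were 0.02, 0.19 and 0.01. Without SNx replicate 3 they were all negative, from -0.80 for Mt-atp8 to -0.12 for Mt-co2. In that fit on 5 libraries, Mt-atp8 had a limma adjusted p of 0.0208, so 1 of 6 genes was called as lower in SNx, against 18.3% of the 14002 genes then tested. Mt-cyb was at -0.69 (standard error 0.24, limma adjusted p 0.0528), and Mt-atp6 and Mt-co1 had -0.63 and -0.62 with adjusted p-values of 0.0875 and 0.142. An unadjusted p under 0.05 with a lower level in SNx was present for 3 of 6 genes, Mt-cyb, Mt-atp6 and Mt-atp8, against 22.7% of the genes in that fit. SNx replicate 3 had the highest CPM of every one of the 6 genes, so leaving it out lowers their estimates by construction. The p-values and counts of that fit are therefore no valid test between groups. The 6 genes also moved together, so the counts are not of separate results. No gene was called when any of the other 5 libraries was left out.

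**Figure D3:**
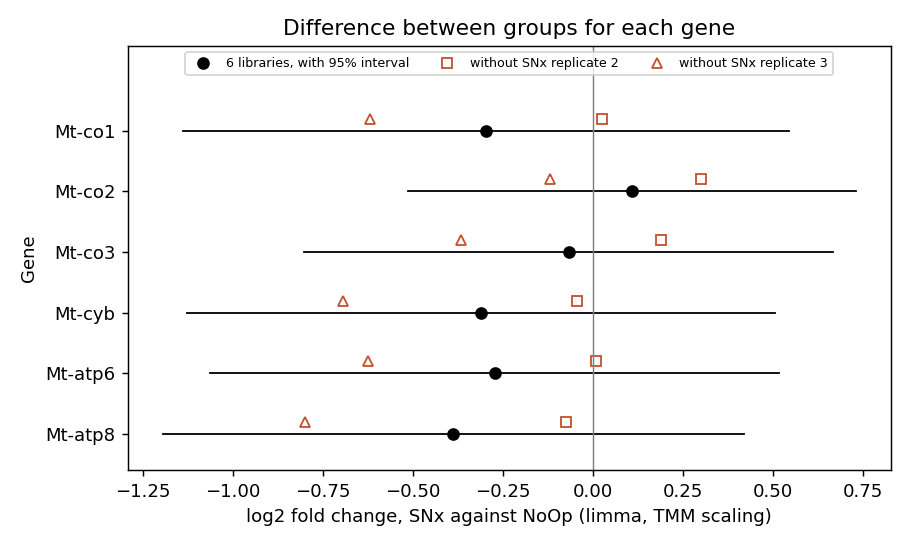
Filled points show the log2 fold change of SNx against NoOp (limma, TMM scaling) for each gene with its 95% interval, and open symbols the estimate without SNx replicate 2 (squares) or 3 (triangles). All 6 intervals include 0, and without SNx replicate 3 the estimates lie between -0.80 and -0.12.

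A wide spread between the SNx libraries was shared by the 6 genes and was also found in other genes. The highest SNx value exceeded the lowest by 2.46-fold for Mt-co1, 1.80-fold for Mt-co2, 2.17-fold for Mt-co3, 2.47-fold for Mt-cyb, 2.42-fold for Mt-atp6 and 2.74-fold for Mt-atp8. In NoOp the corresponding ratios lay between 1.22-fold and 1.31-fold. For all 6 genes the SNx libraries had the same order, with replicate 3 highest and replicate 2 lowest. In NoOp the order was replicate 1, 3 and 2 for 5 of the 6 genes, and Mt-co2 was highest in replicate 3.

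The SD over the SNx libraries on the log2 CPM scale was 0.65 for Mt-co1, 0.42 for Mt-co2, 0.56 for Mt-co3, 0.66 for Mt-cyb, 0.64 for Mt-atp6 and 0.73 for Mt-atp8. The median over all genes was 0.23 in SNx and 0.18 in NoOp. From 76.9% of all genes, for Mt-co2, to 92.1%, for Mt-atp8, had a smaller SD in SNx. In NoOp the SDs of the 6 genes lay between 0.14 and 0.20, near the median of all genes. Of all genes, 52 had a mean log2 CPM of 10 or more, 5 of these 6 included. Their median SD was 0.17 in NoOp and 0.35 in SNx, and 13 had a larger SD in SNx than Mt-co1. All 5 lay above the SNx median, and from 12 of the 52 genes, for Mt-cyb, to 21, for Mt-co2, had a larger SD. These counts include other members where those had the larger SD. A spread this wide was thus found in some other abundant genes, but not in most of them. The difference in spread between groups of 3 was not tested.

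**Figure D4:**
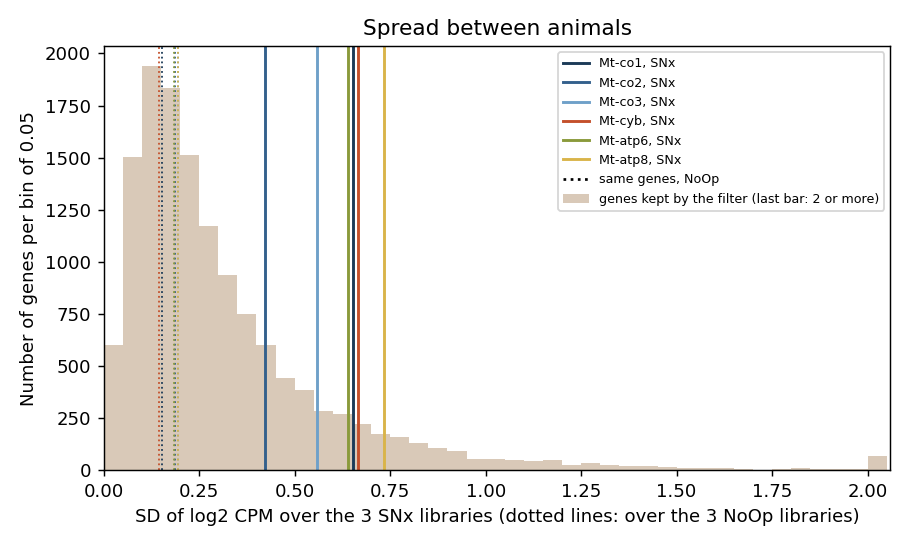
Bars count the genes kept by the filter by the SD of their log2 CPM over the 3 SNx libraries, and lines mark the 6 genes in SNx (solid) and in NoOp (dotted). The solid lines lie between 0.42 and 0.73, to the right of the median of all genes at 0.23, and the dotted lines between 0.14 and 0.20.

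Other measures of the SNx libraries moved with these levels. The TMM factors, by which library sizes are multiplied, were 0.884, 0.963 and 0.932 in the NoOp animals and 1.05, 1.21 and 0.990 in the SNx animals. Scaling thus lowered the CPM of all SNx libraries relative to the NoOp libraries, and that of SNx replicate 2 most. The library sizes contain the 6 genes, so a factor, the share and the CPM are in part linked by construction. The shares of the library total, which use no factor, also ranged from 9.52% to 18.1%. On the first principal component, computed without the 6 genes, the scores were 69.8, 81.0 and 30.5 in the SNx animals and lay between -65.8 and -56.1 in NoOp. The SNx library nearest to NoOp on this axis therefore had the highest levels of the 6 genes and the farthest had the lowest. Although the 6 genes were left out, the axis was computed from CPM scaled with them, and genes with like profiles were kept. With 3 animals, the part of these measures in the levels was not tested.

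The 6 genes did not keep constant proportions to each other. A ratio of counts within a library needs no scaling between libraries, although it cannot show which of the genes changed. Mt-co2 and Mt-co3 were higher relative to Mt-co1 in all SNx libraries than in any NoOp library. Mt-cyb, Mt-atp6 and Mt-atp8 were lower relative to Mt-co3 in all SNx libraries than in any NoOp library.

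For each 100 counts of Mt-co1 there were 17.0, 17.9 and 20.7 counts of Mt-co2 in the NoOp animals, and 23.4, 29.5 and 21.5 in the SNx animals. The groups did not overlap, although NoOp replicate 3 and SNx replicate 3 were close. The difference of the mean log2 ratio was 0.41, with SDs of 0.15 in NoOp and 0.24 in SNx (n = 3 each). Relative to the sum of the other members, the difference for Mt-co2 was 0.37, and the groups overlapped (exact two-sided permutation p 0.2). For Mt-co3 that difference was 0.18 (exact two-sided permutation p 0.1).

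For each 100 counts of Mt-co1 there were 28.8, 27.1 and 27.2 counts of Mt-co3 in NoOp, and 30.8, 35.5 and 31.3 in SNx. The difference of the mean log2 ratio was 0.23, with SDs of 0.05 and 0.11 (n = 3 each), and SNx replicate 2 had the highest ratio for both pairs. Among all other genes kept by the filter, the log2 ratio to Mt-co1 was higher in SNx without overlap for 17.5%, beside 2 of the 5 members. Other genes need not vary together with Mt-co1 as the members did, so these shares are not like for like.

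For each 100 counts of Mt-co3 there were 109, 117 and 116 counts of Mt-cyb in NoOp, and 87.6, 94.8 and 108 in SNx. The difference of the mean log2 ratio was -0.25. Mt-atp6 had 80.8, 81.9 and 84.0 counts for each 100 of Mt-co3 in NoOp and 68.8, 68.6 and 76.6 in SNx, a difference of -0.21. Mt-atp8 had 3.87, 3.88 and 4.02 in NoOp and 2.91, 2.89 and 3.65 in SNx, a difference of -0.32. In these 3 pairs SNx replicate 3 was the SNx library nearest to NoOp. The log2 ratio to Mt-co3 was lower in SNx without overlap for 4 of the 5 members, Mt-co1 included, against 12.0% of all other genes. Mt-co3 was taken as the reference after the data were seen, and the pair with Mt-co1 is the one above in reverse. Other genes need not vary together with Mt-co3 as the members did. The count is therefore not a test, and the shares are not like for like.

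Of the 15 pairs that the 6 genes form, the groups did not overlap in these 5. The exact permutation test (two-sided) gave 0.1 for all 5, the smallest that 3 libraries against 3 allow, with a Benjamini-Hochberg adjusted p of 0.3 over the 15 pairs, so none passed a threshold of 0.05 and none could have. Over the 5 planned ratios to Mt-co1 alone, the adjusted value of this exact permutation test was 0.25 for Mt-co2 and Mt-co3. The pairs share genes and are not independent of each other.

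The 5 differences had the same direction in both ranges of library numbers, which the lack of overlap fixed in advance. Only their sizes are therefore of interest here. In the low and the high range the difference of the log2 ratio to Mt-co1 was 0.63 and 0.16 for Mt-co2 and 0.20 and 0.21 for Mt-co3. For the ratio to Mt-co3 it was -0.26 and -0.12 for Mt-cyb, -0.23 and -0.12 for Mt-atp6, and -0.42 and -0.11 for Mt-atp8. When each library was left out in turn, the sign was fixed in the same way. The difference for Mt-co2 to Mt-co1 then lay between 0.28 and 0.51, with the lowest value without SNx replicate 2. That for Mt-co3 to Mt-co1 lay between 0.17 and 0.27.

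In 14 of the 15 pairs the log2 ratio had a larger SD over the SNx libraries than over the NoOp libraries, and the exception was Mt-co3 to Mt-co2, with 0.18 in NoOp and 0.14 in SNx. The difference in spread was not tested. Among the 10 pairs whose groups overlapped, Mt-cyb to Mt-co1 and Mt-atp8 to Mt-atp6 are described here, chosen after their values were seen because they varied least in NoOp. For each 100 counts of Mt-co1 there were 31.5, 31.8 and 31.6 counts of Mt-cyb in the NoOp libraries, and 27.0, 33.6 and 33.8 in the SNx animals. SNx replicate 1 lay below and SNx replicates 2 and 3 above the NoOp values, and the exact two-sided permutation p of the log2 ratio was 1. Mt-atp8, which shares its messenger RNA with Mt-atp6, had 4.79, 4.73 and 4.78 counts for each 100 of Mt-atp6 in NoOp. In SNx replicates 1 and 2 it had 4.24 and 4.21, below all NoOp libraries, and in SNx replicate 3 it had 4.77, inside the NoOp values (exact two-sided permutation p of the log2 ratio 0.2).

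**Figure D5:**
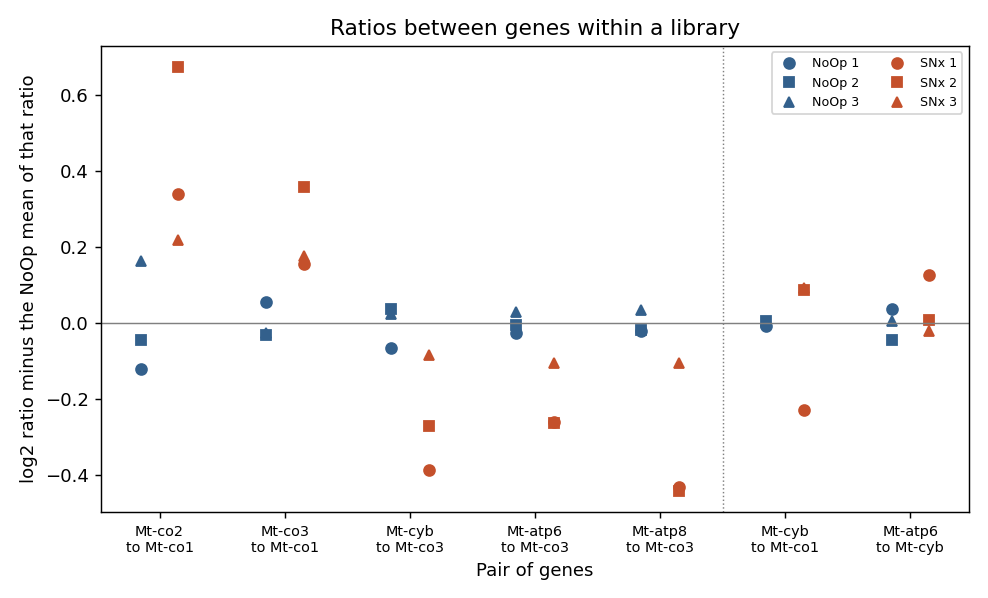
Points show the log2 ratio of counts between pairs of genes in each library, minus the NoOp mean of that ratio, with NoOp in blue and SNx in orange. To the left of the dotted line are the 5 pairs whose groups do not overlap, with mean differences of 0.41, 0.23, -0.25, -0.21 and -0.32, and to the right are 2 pairs whose groups overlap.

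The authors' normalized table, with log2 CPM values from voom, holds 5 of the 6 genes. In it Mt-co1 was at 16.26, 15.93 and 16.11 in the NoOp animals and at 15.85, 15.10 and 16.37 in the SNx animals, the same order of libraries as in the TMM-scaled counts. The 4 non-overlapping pairs that this table can give did not overlap there either, with differences of 0.43 for Mt-co2 and 0.26 for Mt-co3 relative to Mt-co1, and of -0.25 for Mt-cyb and -0.22 for Mt-atp6 relative to Mt-co3. One further pair, Mt-atp6 relative to Mt-co2, did not overlap in this table, with a difference of -0.39, whereas its groups overlapped in the counts. Mt-atp8 has no row in the table although its mean was 7459 counts. Of the 128 genes with a mean at least that high, 31 have no row, and the filter behind the table is not given in the sources used here.

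The likeness of the 6 profiles was measured by the root mean square distance of the log2 CPM, centred on its mean over the 6 libraries, to the mean profile of the 6 genes. It was 0.04 for Mt-atp6, 0.08 for Mt-co1, Mt-co3 and Mt-cyb, 0.12 for Mt-atp8 and 0.21 for Mt-co2, on the log2 scale. Mt-co2 was thus the member least like the others. Each member is part of the mean profile, which lowers its distance by construction, so members and other genes are not like for like. Over 5496 other genes whose mean log2 CPM was 5 or more the median distance was 0.42. The nearest of these were ENSRNOG00000029707, at 0.05, and ENSRNOG00000030644, at 0.06, which the tables do not pair with a symbol. ENSRNOG00000029707 had 13353, 10576 and 11914 TMM-scaled CPM in the NoOp animals and 10315, 6599 and 16818 in the SNx animals. Its log2 fold change was -0.17 (limma adjusted p 0.733). ENSRNOG00000030644 had 10093, 7879 and 8426 CPM in NoOp and 7863, 5084 and 12095 CPM in SNx. The log2 fold change of this gene was -0.14 (limma adjusted p 0.763). Like the 6 genes, both were lowest in SNx replicate 2 and highest in SNx replicate 3.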

How the data were processed

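Per the labels, ribosomal RNA was depleted and strand-specific, paired-end libraries were sequenced, although polyA RNA is the molecule named in the labels. The authors quantified transcripts against a reference transcriptome of the rat build Rn6 by selective alignment (Salmon is named in the submitters' processing notes, without a version) and summarised them per gene with tximport. The deposited raw table holds estimated counts as whole numbers. The study's methods name length-scaled TPM as the unit obtained with tximport. Whether the whole numbers of the raw table are scaled by transcript length was not settled. The second table holds the authors' deposited log2 CPM values from voom. The 12 single-library files repeat these columns and were not used.

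Low counts were removed with filterByExpr (edgeR 4.0.16, minimum count 10, minimum total 15). The remaining 13644 genes were scaled by TMM and fitted by voom and limma 3.58.1 (R 4.3.3) on group alone. The study also used voom and limma, and its model terms, filter and scaling are not given in the sources used here. Tests were two-sided at a Benjamini-Hochberg adjusted p of 0.05 over these genes. Log2 CPM for spreads and likeness used a prior count of 2, and log2 ratios an offset of 0.5 counts. Shares and ratios were compared by exact permutation over libraries. The limma, edgeR and DESeq2 tests were tried on simulated counts, drawn independently per gene with the same dispersion in both groups. That simulation did not cover the permutation tests, genes that move together or a wider spread in SNx. Replicates were numbered in the order of deposition and pair no animals. Each library is taken as 1 animal, as the study describes, which the labels do not state.

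All 6 genes were named. The members, lists and tests were chosen with earlier results of these data known. The rule for likeness named the 5 nearest genes, of which 2 are printed because 0 of 23487 identifiers matched the reference table. For the same reason the planned lists of nuclear subunits, assembly factors, mitochondrial complex I genes, regulators and cell markers were not analysed here. No mitochondrial sequence or gene length was used, so levels are not compared between genes. Reads from nuclear copies of mitochondrial sequence were not examined. Alternatives were edgeR, DESeq2 1.42.0, other scalings and filters, sample weights, library number range as a covariate, the normalized table and leaving out each library. The normalized table for ratios, and ratios to Mt-co3, were added after seeing the data.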

Additional observations from a re-analysis of the deposited data

How the results depend on the processing

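The count of members called was 0 under all 10 settings that kept 6 libraries, 1 of which, the normalized table, holds 5 of the members, and ranged from 0 to 1 when 1 library was left out, with the 1 (Mt-atp8) without SNx replicate 3. Of 95 fold changes under other settings, 86 kept their direction and did not pass the threshold, 8 turned direction and 1 passed the threshold. Mt-co3, at -0.07, was 0.14 with library size alone, 0.000975 with library number range as a covariate, and 0.03 and 0.19 without NoOp replicate 1 and SNx replicate 2. Mt-co2, at 0.11, was -0.01 and -0.12 without NoOp replicate 2 and SNx replicate 3. Without SNx replicate 2, Mt-co1 was 0.024 and Mt-atp6 0.0084. Leaving out 1 library gave log2 fold changes from -0.62 to 0.024 for Mt-co1, -0.12 to 0.30 for Mt-co2, -0.37 to 0.19 for Mt-co3, -0.69 to -0.04 for Mt-cyb, -0.63 to 0.0084 for Mt-atp6 and -0.80 to -0.077 for Mt-atp8. SNx replicate 3 was the library left out at every lowest and SNx replicate 2 at every highest of these values. The difference in summed share ranged from -2.02 to 2.27 percentage points in the same way. The difference of the log2 ratio of Mt-atp6 to Mt-co1 was 0.02, and relative to the sum of the other members it was -0.061, a different ratio by construction. The causes of the other changes were not tested. Leaving out 1 library moved the ratio differences to Mt-co1 within -0.07 to 0.09 for Mt-cyb, -0.01 to 0.09 for Mt-atp6 and -0.18 to -0.00400 for Mt-atp8, and those to Mt-co3 within -0.33 to -0.18 for Mt-cyb, -0.26 to -0.18 for Mt-atp6 and -0.44 to -0.27 for Mt-atp8. No paired analysis was run, because the study describes the groups as different rats and the labels give no replicate numbers. The SDs between the SNx animals were far larger than the counting error of the shares; other depths or group sizes were not tested.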
